A study of Streblospio benedicti with 24 samples.

Results

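Oocyte mRNA of the marine annelid *Streblospio benedicti* was compared between PP and LL females in the 11 parental libraries whose sample description does not mention 2 technical replicates. These were PP replicates 1 to 6 and LL replicates 1 to 5, 11 of the 24 libraries in the series. PP replicate 7 and LL replicates 6 and 7 carry that label and were left out of the comparison, as were the 10 libraries of F1 females, so that the morphs were set against each other within 1 kind of library. PP females give planktotrophic offspring from small eggs and descend from worms of Bayonne, New Jersey. LL females give lecithotrophic offspring from large eggs and descend from worms of Long Beach, California. All were reared in the laboratory and in isolation from males, and each library holds the unfertilized oocytes of a clutch, pooled within a single female, according to the Methods. Morph and population of origin cannot be told apart in these libraries, and reads of both morphs were aligned to a genome of the planktotrophic morph. The age of the females is not given in the sources used here. The labelled tissue could not be checked against oocyte markers, because no annotation of the genes was used here beyond the few names the study's text and supplement pair with identifiers.

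An egg is loaded with mRNA by its mother before fertilization, and these transcripts direct the first cell divisions until the embryo transcribes its own genome. In *S. benedicti* the morphs differ in egg size and in the way their larvae feed. Planktotrophic larvae must eat plankton, while lecithotrophic larvae live on the yolk that the mother supplied. The question put to the comparison is whether such a difference between eggs comes with a difference in the transcripts they hold. A difference in RNA per oocyte and a difference in the number or kind of cells in a pool cannot be told apart in libraries of this kind.

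Between 13125307 and 43609048 reads were counted on genes in the PP libraries (median 23581611), against 10591254 to 21350064 in the LL libraries (median 19389807). The PP and LL libraries did not differ in this total beyond their spread (two-sided exact permutation test over 6 PP and 5 LL libraries, p = 0.165). Reads that did not align made up 32.8% ± 18 of PP libraries, against 41.3% ± 7.65 of LL libraries (SD, two-sided exact permutation test, p = 0.342). The medians were 23.8% in PP and 38.0% in LL. PP replicates 1, 3, 5 and 6 had 21.0%, 25.3%, 22.2% and 21.1%, below every LL library, where the lowest share was 36.3%. PP replicate 4 had 41.1%, and the share was highest in PP replicate 2 (66.1%) and LL replicate 2 (54.7%). At an equal depth of 10591254 counts a PP library was expected to detect 10828 ± 727 genes and an LL library 10818 ± 548 (SD). The names of the deposited tables carry an S number for PP replicates 3 and 4 and LL replicates 3 to 5 and none for the other 6 libraries. The meaning of that number is not stated, and results are given within each kind of table name where they could depend on it. PP replicates 5 and 6 have names with a shared stem and were the most alike of all 25 pairs within a morph, with a correlation of log2 CPM (counts scaled to an equal library total) of 0.953 over genes. The other pairs within PP and within LL lay lower, down to 0.812 within PP, and pairs of a PP and an LL library lay between 0.811 and 0.882. No pair within a morph agreed within sampling noise.

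PP and LL oocytes separated on the first principal component of the 500 most variable genes. PC1 held 33.1% of the variance, with a mean score of 16.8 ± 9.61 for PP, against -20.2 ± 4.32 for LL (SD, n = 6 and 5, two-sided exact permutation test, p = 0.00433). The scores of the morphs did not overlap. PP replicate 3 came closest to the LL libraries, with a score of -1.32, while the other 5 PP libraries lay between 14.2 and 24.7 and the LL libraries between -24.8 and -14.4. This library also stood apart on PC2, which held 18.9% of the variance, with a score of 39.9 where the other 10 libraries lay between -20.8 and 8.54. PC2 scores did not differ between the morphs beyond their spread (4.10 ± 19 in PP, -4.92 ± 10.1 in LL, exact permutation test, p = 0.429). The spread between clutches was wide in both morphs. The biological coefficient of variation, edgeR's measure of how far counts vary between libraries beyond counting error, was 0.708 among PP clutches and 0.602 among LL clutches.

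**Figure D1:**
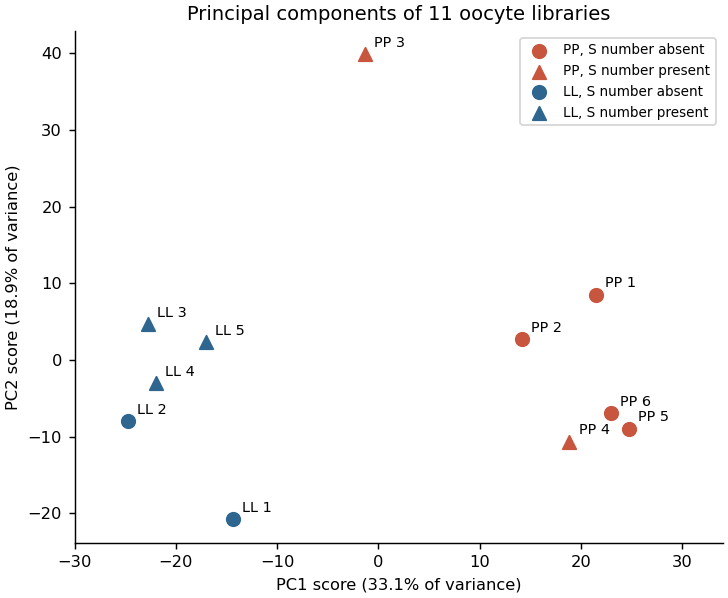
Scores of the 11 libraries on PC1 (horizontal) and PC2 (vertical), made from the 500 most variable genes after a variance stabilizing transformation. Each point is a library, with PP in red and LL in blue, and triangles mark libraries whose table name carries an S number. PP libraries lie at -1.32 or above on PC1 and LL libraries at -14.4 or below, and PP replicate 3 sits alone at 39.9 on PC2.

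The morphs differed in the expression of 238 genes by edgeR's quasi-likelihood F-test, 2.5% of the 9503 tested. Calls needed an adjusted p (Benjamini-Hochberg) of at most 0.05 and a change over 1.5-fold. Of these genes, 140 (1.47% of those tested) had higher expression in PP and 98 (1.03%) in LL. The normalized counts (raw counts divided by DESeq2's median of ratios) in PP lay wholly apart from those in LL for 414 genes, 4.36% of those tested, and 190 of the 414 were called. PP lay above LL in 218 of the 414 and below it in 196. Before adjustment 1650 genes had a p under 0.05. The median log2 fold change of PP over LL over all tested genes was 0.06.

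How many genes were called depended on the tool and on single libraries. DESeq2's Wald test, the tool of the study, called 1064 genes, 9.5% of the 11201 with an adjusted p, including all 238, and limma-voom with sample quality weights called 1284. That method gave PP replicate 3, the deepest library, the lowest weight (0.322) and PP replicate 5 the highest (2.66). Without PP replicate 3 edgeR called 527 genes, among them 234 of the 238. Leaving out PP replicate 1, 5 or 6 gave 112, 86 and 74 genes. Leaving out LL replicate 1, 2 or 3 gave 104, 60 and 103. With PP replicates 5 and 6 summed into 1 library it was 86. With the S number as a covariate it was 144, of which 133 were among the 238. Among the 4 PP and 2 LL libraries without an S number 108 genes were called, 53 of them among the 238, and among the 2 PP and 3 LL libraries with an S number none was called. The morph with more calls also depended on these choices. PP had more in the comparison of all 11 libraries (140 against 98), and LL had more with the S number as a covariate (64 in PP, 80 in LL), without PP replicate 3 (252 in PP, 275 in LL) and without LL replicate 2 (26 in PP, 34 in LL).

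**Figure D2:**
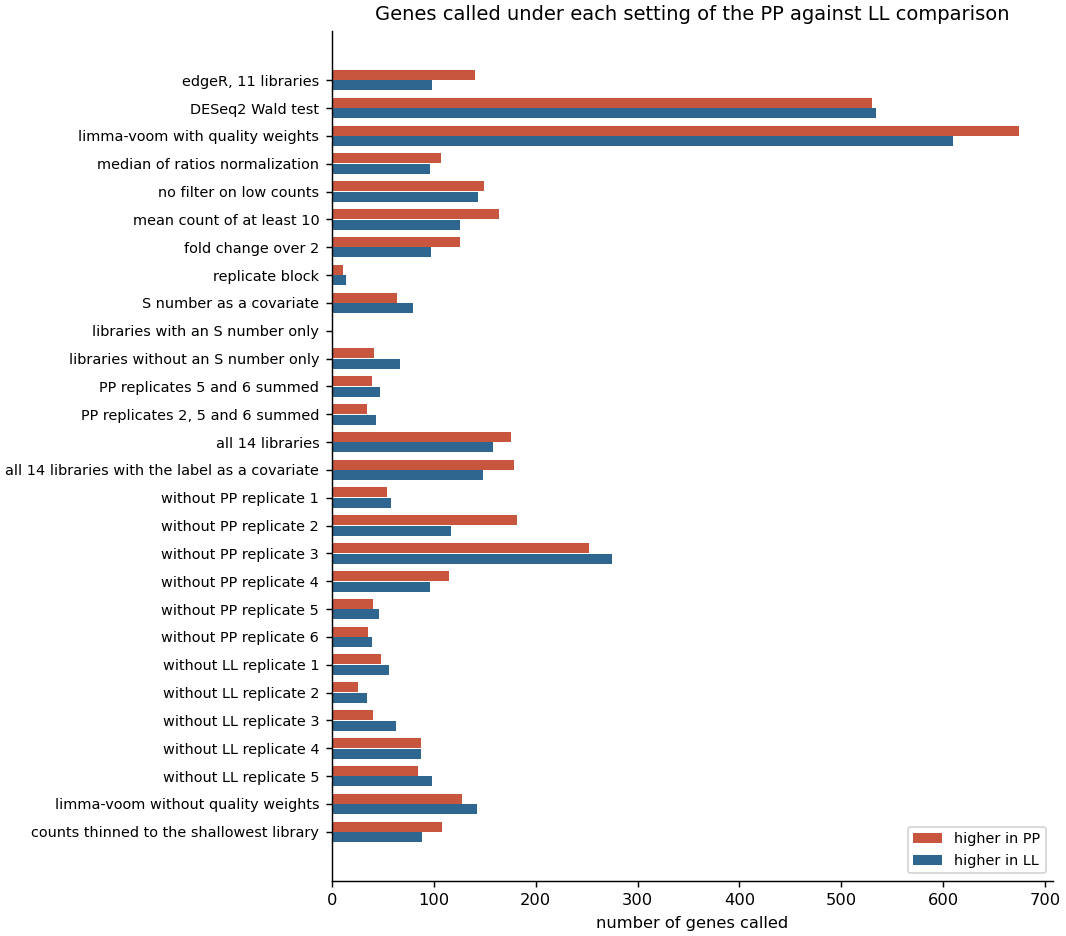
Number of genes called higher in PP (red) and higher in LL (blue) under each setting of the comparison, with the 11-library edgeR fit at the top. The counts reach 674 in PP and 610 in LL by limma-voom with quality weights, and they stand at 26 and 34 without LL replicate 2.

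The genes higher in PP and the genes higher in LL differed in abundance and in size of change. Genes higher in PP had a median log2 fold change of 1.65 and a median abundance of 5.47 log2 CPM. Genes higher in LL had a median log2 fold change of -3.44 and a median abundance of 2.81 log2 CPM, where all tested genes had 3.83. A change over 16-fold was found in 15 of the 140 genes higher in PP and in 42 of the 98 higher in LL. Most of the PP genes, 75 of 140, changed between 2- and 4-fold, and 25 of the 98 LL genes did so. The median change of the LL genes was the larger under every setting that made calls. Genes higher in PP together took between 2.33% and 3.82% of the counts of a PP library, and between 1.24% and 1.52% of those of an LL library. For the genes higher in LL these shares were 0.121% to 0.144% in PP libraries and 0.437% to 0.609% in LL libraries. These counts and shares describe genes that were selected by the same contrast, so their directions are given by the calls.

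**Figure D3:**
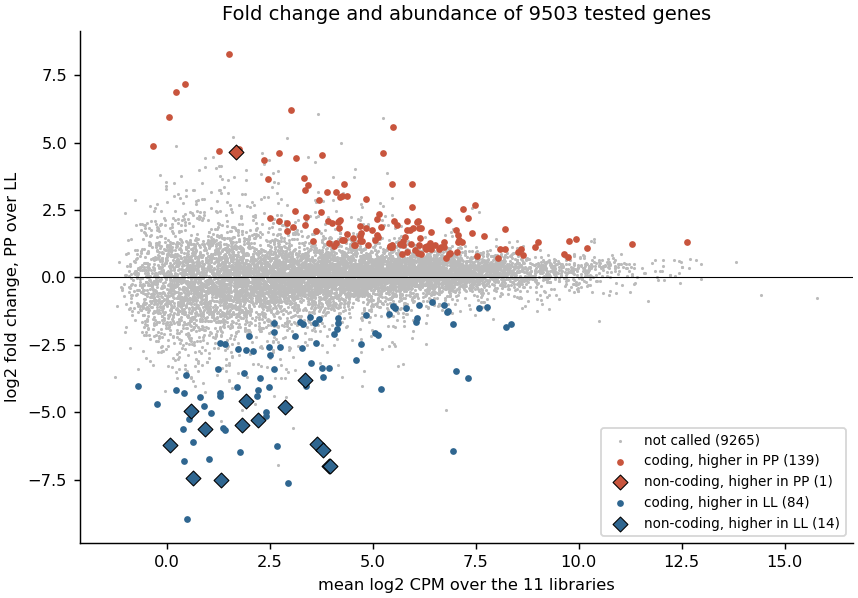
Log2 fold change of PP over LL (vertical) against mean log2 CPM over the 11 libraries (horizontal) for the 9503 tested genes. Red marks the 140 genes called higher in PP, blue the 98 called higher in LL, grey the genes not called, and diamonds the non-coding genes. Calls toward PP gather at small changes and higher abundance, with a median of 1.65, and calls toward LL reach to large changes at low abundance, with a median of -3.44.

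Among coding genes whose normalized counts did not overlap between the morphs, large changes toward PP were found in genes without a name in the sources used here. Sbene_G08562 had between 695 and 3442 normalized counts in PP libraries (median 1413). In LL libraries it had 9.58, 14.7, 60.2, 42.4 and 36.2. Its lowest PP library thus lay far above its highest LL library, and its log2 fold change was 5.56 (standard error 0.58, edgeR's adjusted p = 0.000508). Sbene_G17104 had between 126 and 466 normalized counts in PP (median 194), against 7.66, 7.37, 5.48, 24.3 and 0.954 in LL, which is a log2 fold change of 4.61 (standard error 0.71, edgeR's adjusted p = 0.00603). Sbene_G11336 had between 275 and 600 in PP (median 484), against 1.92, 0, 7.04, 82.9 and 5.72 in LL. LL replicate 4 alone set its LL mean of 19.5, and the log2 fold change of 4.55 (edgeR's adjusted p = 0.0303) reached 8.76 in the most extreme setting. Sbene_G05043 had 40.0 to 1149 in PP (median 82.1), against 1.92, 1.47, 11, 0 and 2.86 in LL, and its highest value came from PP replicate 3. The left-out PP replicate 7 held 0.256 CPM of Sbene_G05043, where the 6 PP libraries used here held 2.14 to 61.7 CPM. LL replicates 6 and 7 held 0.137 and 0.0459 CPM. The other 4 of the 8 largest such changes had 236 normalized counts or fewer in every library. Sbene_G23953, Sbene_G08785, Sbene_G20349 and Sbene_G09773 had means of 44.6, 23.1, 114 and 78.8 across PP clutches, against 0.156, 0.765, 4.02 and 2.88 across LL clutches, with log2 fold changes between 4.69 and 7.16. The calls of Sbene_G20349 and Sbene_G09773 were lost in 15 of 26 alternative settings each, that of Sbene_G08785 in 10 of the 15 that tested it and that of Sbene_G23953 in 10 of 20.

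Toward LL the same rule gave larger changes, and 2 of the 8 genes have a name. Sbene_G20530 is annotated as proliferating cell nuclear antigen, the sliding clamp that holds DNA polymerase on its template during replication. It had between 0.482 and 11.6 normalized counts in PP libraries (median 1.57), against 272, 196, 178, 428 and 266 in LL libraries. The log2 fold change was -6.24 (standard error 0.73, edgeR's adjusted p = 0.00107), and the lowest LL library lay far above the highest PP library. Sbene_G25841 is annotated as a transposon Tf2-9 polyprotein, a product of a retrotransposon family known from fission yeast. It had between 0 and 4.14 normalized counts in PP (median 0.483), against 95.8, 187, 246, 47.5 and 138 in LL, which is a log2 fold change of -6.50 (standard error 1.03, edgeR's adjusted p = 0.00703). Copies of such an element share sequence, and reads from different copies may not be told apart. Sbene_G17614 had no count in any of the 6 PP libraries, against 15.3, 35.4, 71.2, 103 and 55.3 normalized counts in LL. That is at least 19.6-fold higher in LL when a floor of 3 counts is set in each PP library. In the left-out libraries it had 0.0427 CPM in PP replicate 7, 0.481 in LL replicate 6 and 0 in LL replicate 7. The 5 LL libraries used here had 0.770 to 5.15 CPM. Sbene_G04942 was the most abundant of the 8, with between 19.3 and 83.7 normalized counts in PP (median 67.5), against 958, 515, 9802, 570 and 14282 in LL. Its LL values fell into a high pair, replicates 3 and 5, and 3 libraries at 958 or less, and all 5 exceeded every PP library (log2 fold change -6.43, standard error 0.94, edgeR's adjusted p = 0.00433). Sbene_G25069, Sbene_G23835, Sbene_G25696 and Sbene_G03432 had means of 1.69 or less in PP, against 327, 53.2, 84.0 and 62.9 in LL, and log2 fold changes between -7.64 and -6.11.

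Abundant genes among the calls changed less. The 8 most abundant genes higher in PP had log2 fold changes between 0.77 and 1.41, and none has a name in the sources used here. Their calls were lost in 3 to 18 of 26 alternative settings, least often for Sbene_G08495 and most often for Sbene_G21545. Sbene_G09878 had between 92917 and 341970 normalized counts in PP (median 151543), against 75765, 73549, 47142, 88684 and 61824 in LL (log2 fold change 1.30, standard error 0.30, edgeR's adjusted p = 0.0372). The lowest PP library, replicate 3, exceeded the highest LL library by less than the spread within either morph. Sbene_G10276 had 43241 to 96392 in PP (median 63601), against 23204, 29514, 17698, 37695 and 31024 in LL (log2 fold change 1.25, edgeR's adjusted p = 0.0201). Sbene_G08495 had 14572 to 29666 in PP, where the lowest value, from PP replicate 4, stood apart from the other 5 at 28068 or more, and 7799, 6484, 9570, 11839 and 14726 in LL, so that the morphs overlapped (log2 fold change 1.41, edgeR's adjusted p = 0.0150). Sbene_G02230, Sbene_G04356, Sbene_G21545 and Sbene_G19605 did not overlap between the morphs, and Sbene_G14388 did. Their mean normalized counts in PP lay between 13680 and 29924, against 5593 to 14339 in LL.

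The 8 most abundant genes higher in LL had log2 fold changes between -6.43 and -1.09, with Sbene_G04942 among them. Sbene_G16819 is annotated as phosphoenolpyruvate carboxykinase (GTP), an enzyme of glucose synthesis from smaller carbon compounds. It had between 1487 and 4752 normalized counts in PP (median 2524), against 7435, 5055, 3986, 12278 and 19952 in LL, so that LL replicate 3 lay within the PP range. Its log2 fold change was -1.83 (standard error 0.42, edgeR's adjusted p = 0.0366), a level 3.56-fold higher in LL, and the call was lost in 14 of 26 alternative settings. Sbene_G21394 had between 230 and 755 in PP (median 380), against 4823, 7765, 4820, 3572 and 4138 in LL, a level 11.1-fold higher in LL (log2 fold change -3.47, standard error 0.33, edgeR's adjusted p = 0.000296). Sbene_G17407 had between 179 and 1091 in PP (median 340), against 4541, 5433, 2821, 4664 and 14068 in LL (log2 fold change -3.74, edgeR's adjusted p = 0.00324). Sbene_G21083 averaged 2782 ± 1055 in PP and 6032 ± 993 in LL, and Sbene_G11784 averaged 2357 ± 809 over PP, against 5380 ± 786 over LL (SD).

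A beta-actin was among the abundant genes higher in LL. Actin forms the filaments of the cell cortex, and its genes are often taken as references of constant expression. Sbene_G10277 had between 396 and 1840 normalized counts in PP (median 1185), against 3128, 4917, 5047, 4068 and 2478 in LL (log2 fold change -1.73, standard error 0.36, edgeR's adjusted p = 0.0294). Its call was lost in 10 of 26 alternative settings. It had 0 CPM in each left-out parental library, PP and LL alike, so those libraries give no direction for it. The study states that housekeeping genes did not differ in expression between the morphs. The neighbouring identifiers Sbene_G10276, higher in PP, and Sbene_G10278, higher in LL (1137 to 4959 in PP, against 6866, 11028, 11365, 13579 and 8631 in LL), were called too. Neither neighbour has a name in the sources used here. If near-identical actin genes exist, their reads may be divided between copies, and the counts of Sbene_G10277 are uncertain to that extent. This was not tested. The other reference genes were not called. Glyceraldehyde-3-phosphate dehydrogenase (Sbene_G16356), an enzyme of glycolysis, averaged 83025 ± 25192 over PP and 71920 ± 8369 over LL (log2 fold change 0.22, standard error 0.20, edgeR's adjusted p = 0.629). A beta-tubulin (Sbene_G04390), a subunit of microtubules, had 16616 ± 6502 in PP and 23662 ± 9628 in LL (log2 fold change -0.49, standard error 0.31, edgeR's adjusted p = 0.459), and a second beta-tubulin (Sbene_G09986) was too low to be tested.

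To see which calls did not rest on a single library or setting, the genes called in each of 11 fits that left out 1 library were counted. Of the 238 genes, 51 were called in all 11, with 22 higher in PP and 29 higher in LL. When 8 other fits were added, 20 genes were called in each of them. These fits were DESeq2, limma-voom with quality weights, the median of ratios, no filter on low counts, the S number as a covariate, the replicate block, PP replicates 5 and 6 summed, and all 14 parental libraries with their label in the model. Of the 20 genes, 8 were higher in PP and 12 in LL, and 4 of the LL genes were non-coding. None of the 20 overlapped between the morphs, where 190 of the 238 called genes and 4.36% of all tested genes did not. Nothing is read from this, because the 20 were selected by the same contrast. The fits were chosen for this count, and in other settings calls were lost, since the libraries with an S number alone gave no call for any gene. This group was formed after the values had been seen, and it describes how calls held across settings. It includes Sbene_G08562, Sbene_G17104, Sbene_G20530, Sbene_G21394, Sbene_G17407, Sbene_G04942 and Sbene_G25069, described above. The smallest adjusted p of all tested genes belonged to Sbene_G23402, with between 32.4 and 126 normalized counts in PP (median 79.1), against 933, 1828, 1497, 1619 and 1493 in LL (log2 fold change -4.15, standard error 0.35, edgeR's adjusted p = 0.000127). Sbene_G00728 had 59.4 to 189 in PP (median 102), against 847, 1005, 908, 1143 and 587 in LL. Sbene_G05868, with the smallest change of the 20, had 457 to 938 in PP (median 745), against 2421, 1837, 1773, 2040 and 2121 in LL (log2 fold change -1.49). Toward PP, Sbene_G21686 had 275 to 698 normalized counts (median 649), against 86.2, 29.5, 76.7, 92.0 and 86.8 in LL, and Sbene_G07551 had 538 to 1557 (median 777), against 67.0, 165, 163, 150 and 66.8 in LL. Sbene_G10979, Sbene_G09809, Sbene_G14545 and Sbene_G08891 averaged 2084, 4746, 4520 and 3344 in PP, against 187, 1062, 797 and 773 in LL.

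**Figure D4:**
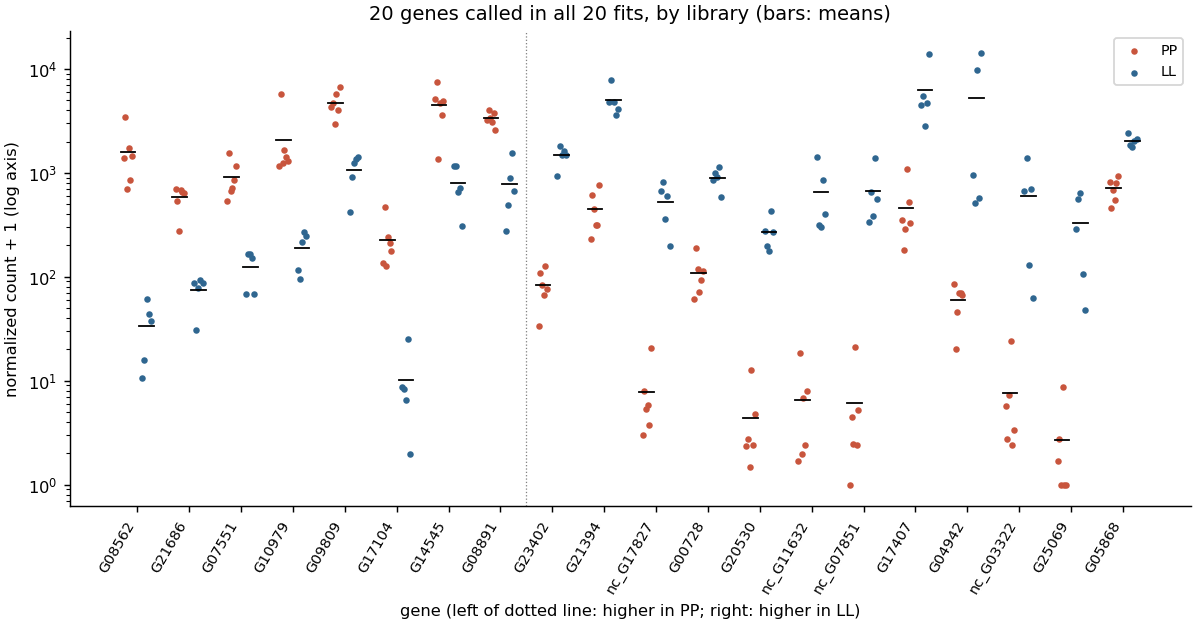
Normalized counts plus 1 (vertical, log axis) of the 20 genes called with all 11 libraries, in the 11 fits with 1 library left out and in the 8 other fits listed above, with the 6 PP libraries in red on the left and the 5 LL libraries in blue on the right of each gene, and black bars at the means. The 8 genes left of the dotted line are higher in PP and the 12 right of it are higher in LL. The groups do not overlap in any of the 20 genes, which were selected by the same contrast, where 4.36% of all tested genes did not overlap. Sbene_G08562 averages 1590 in PP and 32.7 in LL.

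Non-coding genes took a larger share of the counts in LL oocytes than in PP oocytes. By their identifier 5995 of the 26216 genes in the tables are non-coding. Only 52 had enough counts to be tested. Of these 52, 15 were called (28.8%, against 2.36% of the coding genes tested), 14 of them higher in LL and 1 in PP. A gene with few counts in PP could pass the filter only through LL, so these counts describe the genes tested and do not stand for all non-coding genes. Without the filter 38 of 1042 non-coding genes were called (3.65%, 37 of them higher in LL), beside 292 of all 15718 genes tested. With the replicate number as a block 5 of 52 were called (9.62%, all higher in LL), beside 25 of all 9503 tested. Sbene_nc_G11632 had between 0.675 and 17.5 normalized counts in PP libraries (median 3.59), against 1404, 314, 300, 852 and 403 in LL (log2 fold change -6.99, standard error 0.82, edgeR's adjusted p = 0.00107). Sbene_nc_G07851 had 0 to 20.3 in PP (median 2.47), against 335, 656, 387, 1386 and 565 in LL (log2 fold change -6.99, edgeR's adjusted p = 0.00233). In the 11 libraries both had few or no counts in every PP library and far more in every LL library. In the left-out libraries Sbene_nc_G07851 had 0 CPM in LL replicate 6 and 58.2 in LL replicate 7, against 0.385 in PP replicate 7. Sbene_nc_G11632 had 57.2 and 94.1 CPM in LL replicates 6 and 7, against 1.07 in PP replicate 7. Sbene_nc_G25073 averaged 0.347 in PP and 105 in LL, and Sbene_nc_G03627 averaged 0.239 in PP and 63.8 in LL, with log2 fold changes of -7.51 and -7.43. The gene called toward PP, Sbene_nc_G00760, was named because it was the only one in that direction. Its normalized counts lay between 12.5 and 214 in PP libraries, against 11.5, 1.47, 8.61, 0 and 0 in LL libraries (log2 fold change 4.66, edgeR's adjusted p = 0.0469).

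The same direction was seen in whole libraries. The share of counts that fell on non-coding genes was 0.00879% ± 0.00431 in PP libraries and 0.0741% ± 0.0459 in LL libraries (SD, n = 6 and 5, two-sided exact permutation test, p = 0.00216, adjusted p = 0.0195 over 9 measures of the libraries, and the smallest p that 6 against 5 libraries allow). The 6 PP libraries lay between 0.00586% and 0.0173% and the LL libraries at 0.103%, 0.135%, 0.0346%, 0.0720% and 0.0260%, so that the morphs did not overlap. The number of non-coding genes with more than 10 normalized counts was 35.0 ± 21.5 in PP and 136 ± 44.0 in LL (exact permutation test, p = 0.00216), with 14 to 76 in PP and 94 to 200 in LL. The number with any count did not differ beyond the spread (220 ± 95.5 in PP, 287 ± 56.6 in LL, exact permutation test, p = 0.206), and the PP libraries include the deepest. Without the 15 called genes the LL mean was still 6.75 times the PP mean (exact permutation test, p = 0.00216). This alternative was added with the data in view. Among libraries with an S number the LL mean was 3.81 times the PP mean (exact permutation test, p = 0.200, where 2 against 3 libraries cannot go below 0.1), and among those without it 16.1 times (p = 0.0667, the smallest exact p that 4 against 2 allow). The difference therefore had the same direction in both kinds of table name and could not be tested to the threshold within either. The share is small in every library, and how the counting treated overlapping genes on opposite strands is not stated in the sources used here, so reads of a coding gene and an overlapping non-coding gene may not be told apart.

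**Figure D5:**
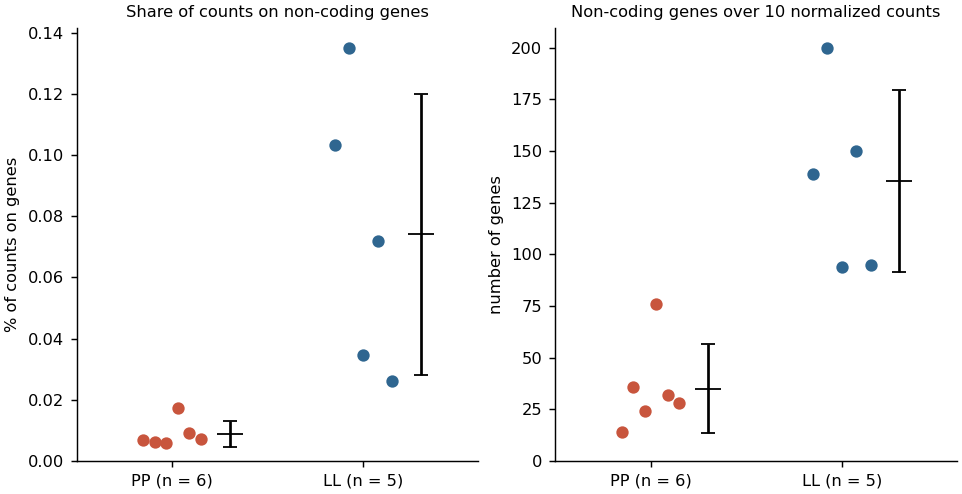
Share of counts on non-coding genes in % (left) and number of non-coding genes with more than 10 normalized counts (right) in each library, PP in red and LL in blue, with the mean and SD in black. The 6 PP libraries reach 0.0173% and 76 genes, and the 5 LL libraries start at 0.0260% and 94 genes.

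Genes nearly silent in one morph were counted with the limits of the study, a mean of fewer than 10 normalized counts in one morph and more than 150 in the other. By this rule 9 genes were exclusive to PP and 21 to LL, and 11 of the 21 but none of the 9 were non-coding. Few of the PP genes were expressed throughout their morph. Only 2 of the 9, Sbene_G07846 and Sbene_G17104, passed 50 normalized counts in all 6 PP libraries, and 8 of the 21 LL genes did so in all 5 LL libraries. Sbene_G07846 had 94.6 to 287 in PP (median 138), against 1.92, 2.95, 7.82, 28.3 and 0 in LL. Several of the others rested on a few clutches. Sbene_G00916 had 2005 normalized counts in PP replicate 1 and 585 in PP replicate 3, against 16.9 or less in the other 4 PP libraries and 20.2 or less in LL, and it was not called (log2 fold change 6.04, standard error 1.91, edgeR's adjusted p = 0.114). Sbene_G12127 was high in the same 2 libraries, with 997 and 455, and had 48.2 or less in the other 4. Sbene_G24081 had 340, 220 and 596 in PP replicates 2, 3 and 4, and 0.468 or less in the other 3. Of the remaining PP genes Sbene_G05043 was called, and Sbene_G00277, Sbene_G08546 and Sbene_G10079 were not, with edgeR's adjusted p of 0.152, 0.123 and 0.0825.

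Among the genes exclusive to LL, some were even across clutches and others were not. Sbene_G09167 had 0.675 to 26.2 normalized counts in PP (median 7.27), against 211, 165, 193, 167 and 176 in LL, the narrowest range of any gene of the list (log2 fold change -4.39, standard error 0.73, edgeR's adjusted p = 0.00900). This evenness did not extend to the left-out libraries. Sbene_G09167 had 8.29 to 10.6 CPM in the 5 LL libraries, but 0.240 and 1.42 CPM in LL replicates 6 and 7, where the 6 PP libraries reached 1.40 CPM. Sbene_G22968, annotated as a zinc finger protein, had 0 to 19.3 in PP (median 2.59), against 136, 293, 218, 341 and 108 in LL (log2 fold change -5.13, edgeR's adjusted p = 0.0214). Proteins with zinc fingers often bind DNA. Sbene_G19355, annotated as fibropellin-1, an extracellular matrix protein known from sea urchins, had 0 to 5.78 in PP, against 0, 273, 181, 93.0 and 236 in LL. LL replicate 1 thus had none of it, and the gene did not pass edgeR's filter. Sbene_G15883 was high in LL replicates 1 and 2 only (412 and 416), and Sbene_G19254 in LL replicates 2 and 3 (447 and 397). By edgeR 3 of the 9 PP genes and 12 of the 21 LL genes were called, and counts of 14 of the 30 did not overlap between the morphs. Over all tested genes 2.5% were called and 4.36% did not overlap, and nothing is read from the difference, because the limits of the list use the same contrast. Leaving out single libraries, the list held between 21 and 34 genes, and 9 genes met the rule every time, all of them exclusive to LL. Among these were Sbene_G20530, Sbene_G22968, Sbene_G20291, Sbene_G25069 and 5 non-coding genes. Not all of them were high in every LL clutch. Sbene_nc_G09475 passed 50 normalized counts in 3 of 5 LL libraries and had 0 CPM in LL replicates 6 and 7. Sbene_G20291 had 2.02 normalized counts in LL replicate 4, and 0.0343 and 4.72 CPM in LL replicates 6 and 7. Sbene_nc_G07851 had 0 CPM in LL replicate 6. The others were higher in both LL replicates 6 and 7 than in PP replicate 7.

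Complete absence was rarer. With at least 3 counts in every library of a morph and none in the other, 4 genes were found for PP and 2 for LL, and with at least 10 counts none was found for either.

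The study's text singles out 12 genes, 5 transcription factors and 7 annotated as frizzled-5 or Notch. They were chosen by the study on these samples and are not independent evidence of a direction. Of the 12, 5 passed edgeR's filter and 1 was called, while DESeq2 called 10. Over all genes with an adjusted p, edgeR called 2.5% and DESeq2 9.5%. The called gene was the polycomb protein Sbene_G10227, a member of a group of proteins that keep genes silent through chromatin. It had between 272 and 1155 normalized counts in PP (median 482), against 2515, 1856, 1956, 2526 and 1391 in LL (log2 fold change -1.64, standard error 0.36, edgeR's adjusted p = 0.0320), and the call was lost in 13 of 26 alternative settings. PP replicates 2 and 4, with 1124 and 1155, came nearest to the LL libraries. The forkhead box protein Sbene_G06980, of a family of DNA-binding factors, had 0 to 17.4 in PP, against 13.4, 112, 64.9, 46.5 and 43.9 in LL (log2 fold change -3.69, edgeR's adjusted p = 0.134). The paired-box protein Sbene_G17489 had 23.6 to 208 in PP, against 3.83, 0, 5.48, 40.4 and 10.5 in LL (log2 fold change 2.79, edgeR's adjusted p = 0.140). The visual system homeobox 2 gene (Sbene_G05917) and kruppel-like factor 15 (Sbene_G10036) were too low to be tested, with means of 0.234 and 1.57 in PP against 9.09 and 29.3 in LL.

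Frizzled receptors bind Wnt ligands at the cell surface, and Notch is a receptor through which neighbouring cells signal to each other. Of these 7 genes edgeR tested 2 and called none, and DESeq2 called 6, beside the same shares of 2.5% and 9.5% over all genes. The Notch gene with the most counts, Sbene_G09677, had 111 to 544 normalized counts in PP (median 210), against 370, 2736, 3810, 983 and 236 in LL. Its LL values spread over more than 10-fold and overlapped those of PP (log2 fold change -2.46, standard error 0.68, edgeR's adjusted p = 0.0712). Sbene_G15020 had 5.52 to 84.0 in PP, against 157, 48.7, 212, 67.7 and 145 in LL (log2 fold change -1.94, edgeR's adjusted p = 0.143). The Notch gene Sbene_G18208 pointed the other way, with a mean of 71.9 in PP and 3.29 in LL, and had no count in PP replicates 1 and 4. Frizzled-5 (Sbene_G05398), with means of 2.79 in PP and 45.1 in LL, and the Notch genes Sbene_G06517, Sbene_G09676 and Sbene_G13608, with means of 2.37 or less in PP and 38.4 or less in LL, did not pass the filter. The 6 Notch genes may share reads if their sequences are alike, and their single values are uncertain to that extent.

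The 3 left-out parental libraries gave values that the calls had not used. They hold 1 PP and 2 LL clutches and are of the other kind of library, so no test was made between them. Of the 140 genes called higher in PP, 99 (70.7%) were higher in PP replicate 7 than in both LL replicates 6 and 7, against 37.8% of all tested genes. Of the 98 genes called higher in LL, 74 (75.5%) were lower in PP replicate 7 than in both, against 33.7% of all tested genes. In 16 of the 238 genes PP replicate 7 lay on the opposite side of both LL libraries. Of the 20 genes called in the 20 fits listed above, 17 lay on the same side, although their choice used these 3 libraries in 1 of the fits. Some of the 17 did so narrowly. Sbene_G10979 had 205 CPM in PP replicate 7, against 110 and 198 in LL replicates 6 and 7. The 5 LL libraries used for the calls held 4.74 to 13.3 CPM of it. Sbene_G20530 had 0.214 CPM in PP replicate 7, against 13.3 and 8.90 in LL replicates 6 and 7. Sbene_G21394 had 26.5 CPM, against 433 and 550. Sbene_G08495 lay on the opposite side, with 747 CPM in PP replicate 7 against 800 and 964 in LL. The log2 ratio of PP replicate 7 over the mean of both LL libraries had a median of 0.56 over the genes called higher in PP and of -1.58 over those called higher in LL, with 0.5 CPM added to each value.

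Sbene_G08562 had unlike values in the unlabelled and the labelled LL libraries. The labelled libraries hold other clutches, so clutch and kind of library cannot be told apart here. On the scale of CPM over all 14 parental libraries, the 6 PP libraries used here held 37.3 to 162 CPM and the 5 LL libraries 0.481 to 3.17. In the 3 labelled libraries, PP replicate 7 held 77.3 CPM, and LL replicates 6 and 7 held 45.6 and 35.1. The order of the morphs was the same, but the labelled LL libraries lay more than 10-fold above every unlabelled LL library. Its difference between the morphs differed between the kinds of library at an unadjusted p of 0.00169 in edgeR's interaction test over 14 libraries, which did not pass the adjustment. Over all genes this test called none of 9392 (0%). Before adjustment 314 genes (3.34%) had a p under 0.05, and the smallest adjusted p was 0.200. DESeq2 called 24. Of the 238 genes called between PP and LL, edgeR's interaction test held 229, and 38 of these (16.6%) had an unadjusted p under 0.05. Nothing is read from this larger share, because the 238 were selected on libraries that the interaction test also used. The labelled group holds only 3 libraries, and what the label stands for beyond its wording is not stated.

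Between the 11 unlabelled and the 3 labelled libraries themselves, with the morph in the model, edgeR called 72 genes, 0.767% of 9392. Of these 26 were higher in the unlabelled and 46 in the labelled libraries, and 11 had no count in any labelled library. The beta-actin Sbene_G10277 was one of the 11. It held 412 to 5324 normalized counts in the unlabelled libraries and 0 in all 3 labelled ones, with all 14 libraries normalized together. Of the 72 genes 6 were among the 238 called between PP and LL, where 2.5% of all tested genes were called.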

How the data were processed

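From total RNA, the authors made stranded Illumina libraries from the oocytes of single females. They trimmed the reads with Trim Galore and fastp and removed rRNA reads with SortMeRNA. The remaining reads were aligned with HISAT2 and counted on genes with HTSeq. By this account, shares of reads given here are shares of those left after trimming and rRNA removal. The deposited values are raw counts per gene, 1 table per sample. Strandedness was enabled in the alignment. The versions of these tools and the strand setting of the counting are not given in the sources used here. Summary lines that name no gene were removed before any library size was taken, which left 12.9% to 35.6% of the reads of each of the 11 libraries.

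PP replicates 1 to 6 and LL replicates 1 to 5 were fitted with edgeR 4.0.16 in R 4.3.3 (TMM, filterByExpr, quasi-likelihood F-test, Benjamini-Hochberg adjusted p of 0.05 or less, fold change over 1.5). Alternatives used DESeq2 1.42.0 and limma 3.58.1. Normalized counts for display are raw counts divided by DESeq2's median of ratios. Libraries were compared by two-sided exact permutation tests. The fits by edgeR, DESeq2 and limma-voom were checked on simulated counts, with results not given here. The permutation test was checked only on a small set of fixed numbers. Same-numbered PP and LL libraries deviated together no more than some libraries with unlike numbers, so numbers were not taken as pairs. Each sample is the clutch of 1 female per the study's Methods, and p-values measure the spread between these clutches.

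Gene names come from the study's text and from pictures of its supplementary tables. Named genes were those the study's text or legends give, its reference genes, the 8 largest non-overlapping coding changes in each direction, the 4 largest non-coding ones, the 8 most abundant calls in each direction and the exclusive genes; others are said to be chosen after their values were seen. Comparison, lists and rules were chosen with earlier results of these data known. F1 libraries, sequences and gene positions were not used here.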

Additional observations from a re-analysis of the deposited data

Results flagged for a closer look

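In 162 groups of values (library measures and named genes, within PP or within LL) the highest or lowest library was compared with the nearest of the others, by Dixon's 95% limit. Genes were compared on the log2 of the normalized count plus 1, and the values printed below are normalized counts. In 14 of the 162 groups 1 library stood apart, and chance alone gives about 1 in 20 groups. No single library accounts for these groups, and causes were not tested.

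PP replicate 2 was high for Sbene_G15883 (21.0 normalized counts, others 0 to 0.675), for Sbene_G10275 (100617, others 35910 to 50367) and for Sbene_G10979 (5712, others 1151 to 1655). PP replicate 3 was high for Sbene_G14388 (26356, others 9198 to 12248) and low for Sbene_G21686 (275, others 538 to 698). PP replicate 4 was low for Sbene_G08495 (14572, others 28068 to 29666) and high for Sbene_nc_G08428 (11.6, others 0 to 0.937). Its share of non-coding counts was 0.0173%, where the other PP libraries had 0.00586% to 0.00898%, and it was still below every LL library.

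LL replicate 1 had no count of fibropellin-1, Sbene_G19355 (0, others 93.0 to 273). LL replicate 2 was low for Sbene_G21686 (29.5, others 76.7 to 92.0), and 54.7% of its reads did not align, where the other LL libraries had 36.3% to 39.9%. LL replicate 4 was low for Sbene_G20291 (2.02, others 195 to 414) and high for Sbene_G19605 (13011, others 9645 to 10420). LL replicate 5 was high for Sbene_G04356 (11457, others 8226 to 8918).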

How the results depend on the processing

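The separation on PC1 held with every library left out (difference 34.9 to 39.1, exact permutation p between 0.00476 and 0.00794), and so did the difference in non-coding share (PP minus LL, -0.0774 to -0.0501 percentage points). That difference was -0.0326 points in libraries with an S number and -0.112 points in those without, neither past the threshold in designs too small to reach it. The number of genes called between PP and LL, 238, moved most. It was 1064 by DESeq2 and 1284 by limma-voom with quality weights, 144 with the S number as a covariate, 0 in libraries with an S number (2 PP, 3 LL), 108 in those without, 86 with PP replicates 5 and 6 summed and 77 with PP replicate 2 added to them. Leaving out 1 library gave 60 to 527. Alternatives chosen after seeing the data gave 270 (limma-voom without weights) and 196 (counts thinned to the shallowest library). With the replicate number as a block 25 genes were called, all among the 238. The deviations of same-numbered libraries correlated between -0.03 and 0.16, within the range of PP and LL libraries with unlike numbers (-0.23 to 0.16). These few correlations cannot settle whether the numbers are pairs. Why calls were lost under the block was not tested. Exclusive genes numbered 51 with an upper limit of 100, 11 with a lower limit of 5, and 21 to 34 with 1 library left out. Genes differing between the kinds of library numbered 485 by DESeq2, 315 without a filter, and 42 to 51 with 1 labelled library left out. The interaction gave 24 by DESeq2, 10 without a filter, 1 without LL replicate 6 and 0 without LL replicate 7, and without PP replicate 7 it could not be fitted. Called genes on the same side in the left-out libraries were 77.7% without LL replicate 7 and 87.0% without LL replicate 6. Over 70 named genes and 1770 comparisons with an alternative, 339 lost a call, 44 gained one and 1 changed sign. This was glyceraldehyde-3-phosphate dehydrogenase (Sbene_G16356), not called, with a log2 fold change of -0.046 in libraries with an S number. The causes of these changes were not tested.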

Other observations

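Some genes with neighbouring identifiers differed strongly between the kinds of library. Over all 14 parental libraries normalized together, Sbene_G04387 held 5.47 to 244 normalized counts in the 11 unlabelled libraries and 22502 to 31568 in the 3 labelled ones (log2 fold change -8.90, edgeR's adjusted p = 4.88e-07). Its neighbour Sbene_G04388 held 9457 to 28695 in the unlabelled libraries and 0 to 0.84 in the labelled ones. Each of these genes thus held many counts in 1 kind of library and few or none in the other, in PP and LL alike. Both were chosen after their values had been seen. What set the counts of these neighbours was not tested, and how each kind of library was counted is not given in the sources used here.

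Among the 223 coding genes called between PP and LL, 4 pairs had adjacent identifiers. Both genes of 3 pairs changed in the same direction, and those of the other pair, Sbene_G10276 and the beta-actin Sbene_G10277, in opposite directions. Over all tested coding genes, 2712 of 5088 adjacent pairs had fold changes of the same sign.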
